A study of Mus musculus with 6 samples.

Results

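The 10 genes described here encode the enzymes that write and remove DNA methylation and the catalytic core of Polycomb repressive complex 2. They were chosen by name: Dnmt1, Dnmt3a, Dnmt3b, Uhrf1, Tet1, Tet2, Tet3, Ezh1, Ezh2 and Suz12, 10 of the 53801 gene identifiers counted in each library. All 10 were present and passed the filter on low counts, among 14531 genes tested. RNA came from MC3T3-E1, a pre-osteoblast line established from mouse skull. The Control cells carried a lentivirus with a scrambled, non-silencing hairpin, and the Hdac4-knockdown cells carried the same vector with an Hdac4-shRNA, so both groups expressed the ZsGreen1 and puromycin resistance genes of the vector. Both were puromycin-selected stable infections of 1 line, with 3 libraries per group called biological replicates, from RNA samples called independent. Nothing in the sources used here says whether these came from separate cultures, so the p-values measure the spread between these samples, which may be technical.

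DNA methylation is placed on cytosines of CpG dinucleotides. Dnmt3a and Dnmt3b can methylate DNA that carries no mark, whereas Dnmt1 copies existing methylation onto the new strand behind the replication fork, where Uhrf1 recruits it by binding hemimethylated CpG. The Tet proteins oxidize methylcytosine, the first step of its removal. Polycomb repressive complex 2 (PRC2) methylates lysine 27 of histone H3 through either Ezh2 or Ezh1, held in the complex by Suz12 and Eed. Ezh2, Dnmt1 and Uhrf1 are known to be more abundant in dividing cells, and Ezh1 is known to persist in resting ones. The comparison asks how the transcripts of these enzymes stood in MC3T3-E1 cells with less Hdac4, a class IIa histone deacetylase that the study links to proliferation. Only RNA was measured, not the proteins, DNA methylation or histone marks.

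Counts on genes were 29096544 to 31053296 in Control and 29554263 to 31651826 in Hdac4-knockdown libraries, so depth did not separate the groups. Hdac4 itself was counted 1243, 1204 and 1136 times in Control replicates 1 to 3 and 950, 927 and 887 times in the knockdown. Its normalized count, scaled to library size (CPM), was 40.3 ± 0.412 against 29.6 ± 0.981 (SD, n = 3), a fall to 73.6% (log2 fold change −0.44). Reads carried no strand, and Gm26720, on the other strand, overlaps 22.4% of Hdac4 exon sequence. The first principal component of all tested genes held 90.8% of the variance and separated the groups. With 75.1% of all tested genes called (a log2 fold change over 0.05 in either direction at an adjusted p under 0.05), a call was the usual outcome for a gene in these libraries. Of the osteoblast marker list, 8 of 12 genes were tested, with 6 higher and 2 lower. The lower genes were Spp1 (3154 to 2046 CPM, log2 fold change −0.62) and Msx2 (2.12 to 1.13 CPM, −0.91). Runx2 was called higher, but its groups overlapped (69.9 ± 4.64 against 79.5 ± 5.67 CPM, SD, n = 3). Spp1, Msx2 and Runx2 were named after their values were seen. Dlx5 had 4, 8 and 5 counts in Control and 227, 266 and 282 in the knockdown. Sp7, named after its values were seen, had 4, 7 and 2 against 74, 112 and 68. Both passed the filter only through the knockdown group, where they were high. Whether the groups held cells of the same type was not tested. Col1a1, the main collagen of bone, had 338 CPM in Control and 11015 CPM in the knockdown, whereas Alpl, the alkaline phosphatase of osteoblasts, had at most 3 counts in any library.

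The enzymes did not move together. Of the 10 genes, 4 were lower in Hdac4-knockdown libraries (Dnmt1, Uhrf1, Ezh2 and Suz12), 4 were higher (Dnmt3a, Dnmt3b, Tet1 and Tet3), and Tet2 and Ezh1 did not pass the test. Of all tested genes, 38.0% were called higher and 37.1% lower, so 8 called genes of 10 is a share near the background and the number of calls is no result about these enzymes. The same holds for the 9 genes whose groups did not overlap, against 76.8% of all tested genes. The size of the changes was also usual. The log2 fold change of Tet1 was larger in size than that of 73.6% of tested genes, and that of Ezh1 was larger than that of 5.28%. The median log2 fold change of the 10 genes was 0.06, beside 0.01 for all tested genes and lay between log2 fold changes of −0.75 to −0.54 in the lower genes and 0.22 to 1.03 in the higher ones. Beyond a log2 fold change of 0.5 in size, 2 of the 10 genes were higher and 4 were lower, beside 24.6% and 19.8% of all tested genes. In bulk RNA, fewer cells of a type and less RNA per cell cannot be told apart.

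**Figure D1:**
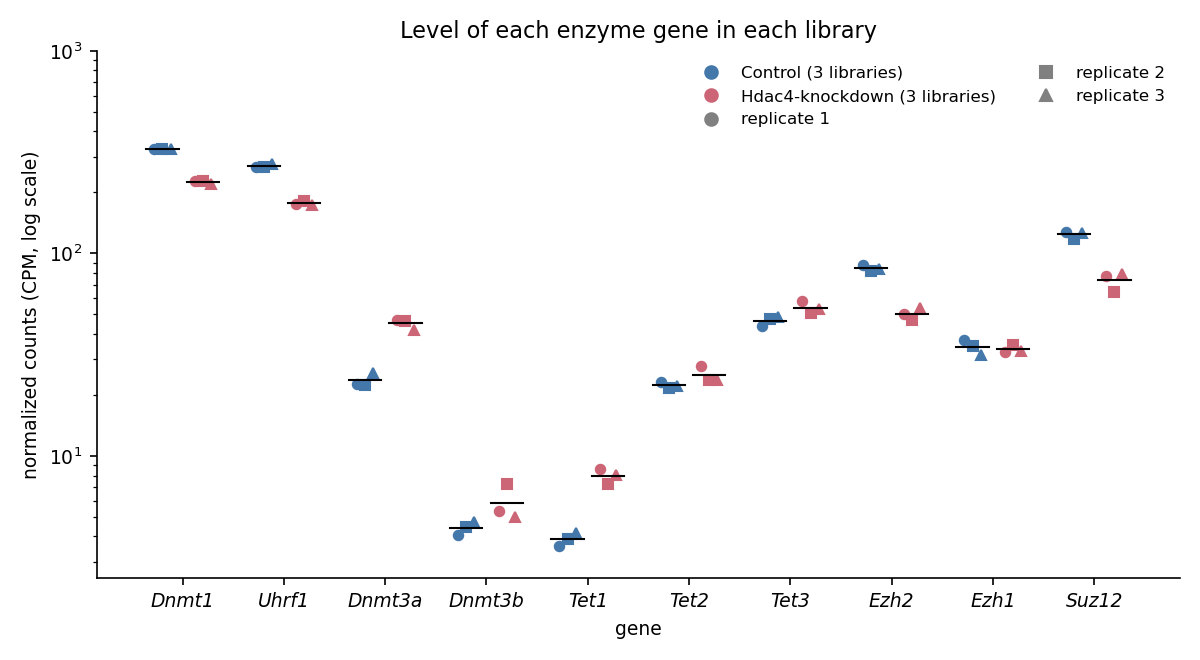
Normalized counts (CPM, log axis) of the 10 genes in each of the 6 libraries, 1 column pair per gene, with blue for Control, red for Hdac4-knockdown, marker shape for the replicate number and a black line at the group mean. Dnmt1, Uhrf1, Ezh2 and Suz12 lie lower in all 3 knockdown libraries, Dnmt3a and Tet1 lie higher, and only the Ezh1 points overlap between groups.

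Per kilobase of annotated exon, the 10 transcripts stood in the same order in both groups. In Control libraries the level was 63.3 CPM per kb for Uhrf1, 44.4 for Dnmt1, 25.1 for Suz12, 12.6 for Ezh2, 4.64 for Ezh1, 2.78 for Tet3, 1.42 for Dnmt3a, 1.32 for Tet2, 0.862 for Dnmt3b and 0.252 for Tet1. In knockdown libraries the corresponding levels in CPM per kb were 41.5 for Uhrf1, 30.6 for Dnmt1, 14.9 for Suz12, 7.55 for Ezh2, 4.51 for Ezh1, 3.23 for Tet3, 2.71 for Dnmt3a, 1.49 for Tet2, 1.15 for Dnmt3b and 0.516 for Tet1. Maintenance methylation and Ezh2-type PRC2 transcripts thus stood at the top in both groups, and the Dnmt3 and Tet transcripts at the bottom. The neighbours Dnmt3a and Tet2 overlapped between libraries in Control, and Tet2 and Dnmt3b overlapped in the knockdown. Exon lengths here join all annotated transcripts, so a gene with long alternative exons has a lower value per kb.

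The starts of the genes that were lower are shown because each held 1 or more of 4 related spellings that the starts of the others did not. Promoter windows from RefSeq (GRCm38.p6), from 250 bases before to 50 bases after each annotated start, were searched on both strands for the E2F-type spellings TTTGGCGC, TTTCCCGC, TTTCGCGC and TTTGCCGC. E2F factors are known to act on genes of DNA replication. The spellings were picked with the results and these sequences known, so the split between the lower genes and the others is not a test. They occurred in windows of Dnmt1, Uhrf1, Ezh2 and Suz12 and in none of Dnmt3a, Dnmt3b, Tet1, Tet2, Tet3 or Ezh1. In the genome table, 704 of 27025 genes (2.61%) and 744 of 32851 windows (2.27%) held a spelling. Every spelling contains a CpG, and each of these genes has a window richer in CpG than most. The genome share is therefore not a like background. In the lines below, 30 bases around each match are written 5′ to 3′ on the strand of the gene, with the match in capitals.
Dnmt1, chr9:20952824-20952853, minus strand: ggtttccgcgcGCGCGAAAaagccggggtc
Dnmt1, chr9:20952574-20952603, minus strand: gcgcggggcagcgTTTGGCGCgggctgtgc
Uhrf1, chr17:56304117-56304146, plus strand: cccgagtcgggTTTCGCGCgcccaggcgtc
Ezh2, chr6:47595009-47595038, minus strand: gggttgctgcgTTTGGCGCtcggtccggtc
Suz12, chr11:79992876-79992905, plus strand: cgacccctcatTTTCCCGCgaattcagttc

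The first Dnmt1 line holds the match on the opposite strand of the gene (GCGCGAAA, the reverse of TTTCGCGC), and no 2 matches in these lines overlap. Counted in bases from the start site, with negative values before it, the matches began at −219 and 34 in Dnmt1, −185 in Uhrf1, 4 in Ezh2 and −219 in Suz12. Dnmt1 has 3 annotated starts and Uhrf1 has 2, and the matches lay at the third and the second of these. Among the genes of other lists that had a window, 7 of 17 S phase genes, 1 of 17 G2/M genes, 1 of 9 other PRC2 subunits and 0 of 18 PRC1 subunits held a spelling. All 10 genes had at least 1 window rich in CpG, from 17 CpG at Tet1 to 57 at Tet2 in the richest window of each gene, against a median of 7 over all windows. A match is a description of letters, and no binding was measured. Whether E2F factors take part in the levels of these genes was not tested.

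The maintenance methylation genes both fell. Dnmt1 (ENSMUSG00000004099, GRCm38 chromosome 9, 20907209 to 20959888, minus strand), the maintenance methyltransferase, stood at 328, 329 and 326 CPM in Control and at 228, 229 and 220 CPM in the knockdown. The 3 knockdown libraries lay together, well below the Control libraries. The mean went from 328 ± 1.57 to 226 ± 4.68 CPM (SD, n = 3), or 68.9% of Control (log2 fold change −0.54, SE 0.0381, adjusted p = 1.29e-10). Uhrf1 (ENSMUSG00000001228, chromosome 17, 56303321 to 56323486, plus strand), which brings Dnmt1 to newly replicated DNA, had 267.2, 267.5 and 274 CPM in Control and 176, 181 and 173 CPM in the knockdown. It fell to 65.6% of Control (log2 fold change −0.61, SE 0.0395, adjusted p = 3.2e-11). Of the 10 genes it had the lowest p, which ranked 1786 among the 14531 tested genes.

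The de novo methyltransferases stood higher, with different certainty. Dnmt3a (ENSMUSG00000020661, chromosome 12, 3806007 to 3914443, plus strand) had 22.5, 22.5 and 25.8 CPM in Control and 47.1, 46.5 and 41.6 CPM in the knockdown. The lowest knockdown library was above the highest Control library by more than the spread within either group. The mean rose from 23.6 ± 1.88 to 45.0 ± 3.00 CPM (SD, n = 3), 1.91-fold (log2 fold change 0.93, SE 0.069, adjusted p = 2.45e-10). Antisense Dnmt3aos shares 0.799% of its exon bases. Dnmt3b (ENSMUSG00000027478, chromosome 2, 153649450 to 153687730, plus strand), the partner enzyme best known from early embryos, was low, with counts of 124, 133 and 134 in Control and 166, 233 and 150 in the knockdown. Knockdown replicate 2 stood apart from the other two, at 7.23 CPM against 5.37 and 4.98 CPM, while Control held 4.06, 4.44 and 4.70 CPM. Its fitted log2 fold change came to 0.42 (SE 0.15, adjusted p = 0.0170). Without knockdown replicate 2 it was 0.24 (adjusted p = 0.157) and without Control replicate 1 it was 0.35 (adjusted p = 0.0704), so the call for Dnmt3b rested on these libraries.

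The dioxygenase genes differed in size of change. Tet1 (ENSMUSG00000047146, chromosome 10, 62804570 to 62908996, minus strand), the form known from embryonic stem cells, was the lowest of the 10 genes per kb and had the largest change in size. It was counted 110, 117 and 119 times in Control and 268, 234 and 241 times in the knockdown. Its level rose 2.05-fold, from 3.89 ± 0.288 to 7.98 ± 0.701 CPM (SD, n = 3; log2 fold change 1.03, SE 0.126, adjusted p = 4.13e-07). Tet3 (ENSMUSG00000034832, chromosome 6, 83362373 to 83459084, minus strand) held 43.6, 47.2 and 48.5 CPM in Control and 58.3, 50.6 and 52.9 CPM in the knockdown. The groups were separate by a small gap, and the rise was 1.16-fold (log2 fold change 0.22, SE 0.0608, adjusted p = 0.00345).

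Tet2 (ENSMUSG00000040943, chromosome 3, 133463679 to 133545139, minus strand), the form known from blood stem cells, had 23.3, 21.7 and 22.0 CPM in Control and 27.7, 23.6 and 23.8 CPM in the knockdown. The groups did not overlap, but only knockdown replicate 1 stood clearly above Control. Its log2 fold change of 0.16 (95% interval 0.01 to 0.32) had an adjusted p of 0.0506 and was not called. The adjusted p ran from 0.00453 to 0.255 over the alternative settings, and Tet2 passed the threshold under 7 of 14 of them, so these libraries do not settle its call.

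The core PRC2 genes parted between Ezh2 and Ezh1. Ezh2 (ENSMUSG00000029687, chromosome 6, 47530139 to 47595341, minus strand), the catalytic subunit of proliferating cells, had 87.3, 81.7 and 83.6 CPM in Control and 50.2, 47.0 and 54.0 CPM in the knockdown. Every knockdown library lay far below every Control library. The mean fell from 84.2 ± 2.87 to 50.4 ± 3.48 CPM (SD, n = 3), to 59.8% of Control (log2 fold change −0.74, SE 0.0545, adjusted p = 2.28e-10). Suz12 (ENSMUSG00000017548, chromosome 11, 79993106 to 80034123, plus strand), which holds the complex together, had 127, 118 and 126.5 CPM in Control and 77.7, 64.1 and 78.9 CPM in the knockdown. It fell to 59.4% of Control (log2 fold change −0.75, SE 0.0627, adjusted p = 1.59e-09), with knockdown replicate 2 the lowest. Genes on the other strand share 2.61% of the exon bases of Ezh2 and 3.60% of those of Suz12.

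Ezh1 (ENSMUSG00000006920, chromosome 11, 101191115 to 101226463, minus strand), the alternative catalytic subunit, had 37.1, 34.8 and 31.5 CPM in Control and 32.7, 35.2 and 32.8 CPM in the knockdown. The knockdown values all lay within the range of Control. The log2 fold change was −0.04 (95% interval −0.18 to 0.10, adjusted p = 0.579). Its sign was not fixed, since it turned positive under library size alone, upper quartile scaling and without Control replicate 1. In single-gene exact permutation tests (two-sided), Ezh1 gave p = 0.7 and the other 9 genes gave p = 0.1, below which a design of 3 against 3 cannot go.

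**Figure D2:**
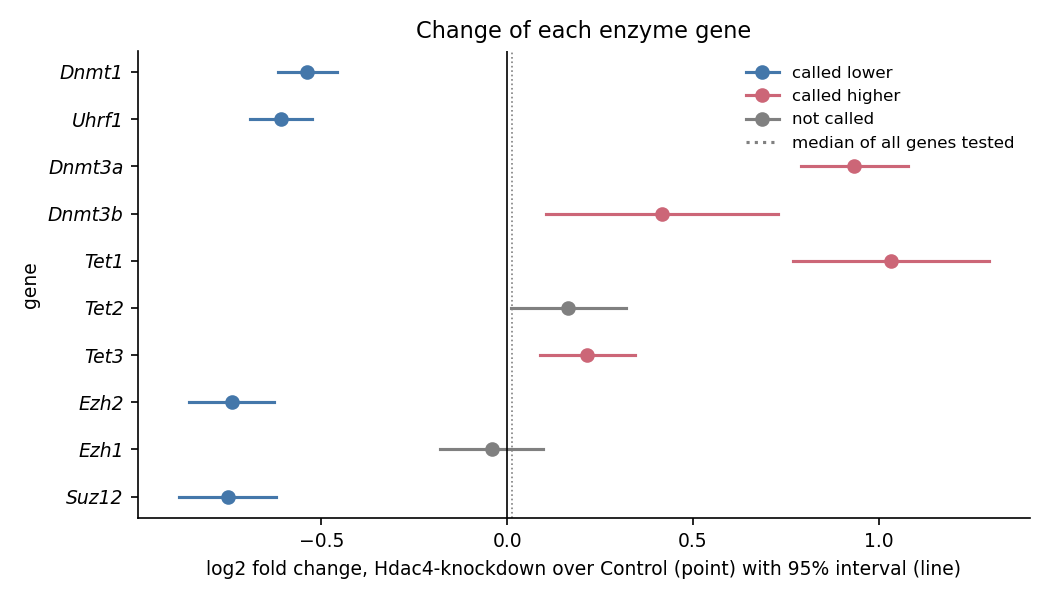
Log2 fold change of each of the 10 genes, Hdac4-knockdown over Control (points), with its 95% interval (lines), in blue for genes called lower, red for genes called higher and grey for genes not called. The dotted line is the median of all tested genes, at 0.01. The interval of Dnmt3b is wide and that of Ezh1 spans 0.

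Ratios of a pair of genes within the same library do not depend on scaling. All 9 ratios were tested by two-sided exact permutation tests, which cannot go below p = 0.1 here, with adjusted p-values over the 9, so none could pass the threshold. Ezh2 was 2.73 ± 0.197 times Ezh1 per kb in Control and 1.68 ± 0.175 times in the knockdown (SD, n = 3). The groups did not overlap (log2 difference −0.70, exact p = 0.1, adjusted p = 0.15), and Ezh2 stayed the more abundant in every library. Suz12 to Ezh2 was 1.99 ± 0.0487 against 1.97 ± 0.126 per kb, with overlapping groups (exact p = 1).

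Uhrf1 to Dnmt1 was 1.43 ± 0.0284 per kb in Control and 1.36 ± 0.0192 in the knockdown (SD, n = 3), a small shift without overlap (log2 difference −0.07, exact p = 0.1). Dnmt3b to Dnmt3a was 0.609 ± 0.0316 against 0.423 ± 0.0733, and Tet1 to Tet2 was 0.191 ± 0.0196 against 0.348 ± 0.0169 per kb. These last ratios also did not overlap between groups (log2 differences −0.54 and 0.87, exact p = 0.1 for each). Dnmt3a thus stood further above Dnmt3b in the knockdown libraries, and Tet1 closer to Tet2. Tet3 to Tet2 was 2.10 ± 0.183 against 2.18 ± 0.0614, with overlap (exact p = 0.8).

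The lower genes moved alongside genes of DNA replication. Of 20 S phase genes, 18 fell and 2 (Cdt1, and Fen1 at only 55 to 103 counts, named after their values were seen) did not pass the test, with a median log2 fold change of −0.48. With library size alone, upper quartile scaling or at least 10 counts in every library, 1 S phase gene was called higher. Rrm2, a subunit of ribonucleotide reductase, went from 499.98 to 196 CPM, Tyms, which makes thymidylate, from 91.3 to 46.5 CPM, and the replicative helicase subunit Mcm7 from 347 to 198 CPM. Pcna, the sliding clamp that Dnmt1 binds at the replication fork, fell by 0.61 on the log2 scale, close to Uhrf1. All 20 G2/M genes fell, beside the same 37.1% of all tested genes, with a median log2 fold change of −1.62. Among them were Ube2c (204 to 44.5 CPM), Ccnb1, the mitotic cyclin (232 to 58.0 CPM), and Aurkb, a mitotic kinase (131 to 36.3 CPM). Mki67, a general marker of cycling cells, fell by 1.14 on the log2 scale. The summed S phase level was 3762 to 3788 CPM in Control and 2534 to 2593 CPM in the knockdown, and the summed G2/M level was 4201 to 4281 against 1417 to 1502 CPM.

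Set against the summed S phase genes of the same library, Dnmt1 was 8.68% ± 0.0295 in Control and 8.78% ± 0.255 in the knockdown (SD, n = 3). These values overlapped (exact permutation p = 0.6), so Dnmt1 and the S phase sum were lower by about the same factor. Uhrf1 was 7.14% ± 0.131 against 6.88% ± 0.167 of that sum, without overlap (log2 difference −0.06, exact p = 0.1). Ezh2 was 2.23% ± 0.0715 against 1.96% ± 0.134, also without overlap (log2 difference −0.19, exact p = 0.1). Suz12 was not set against that sum. How far the lower S phase level takes part in the levels of Dnmt1, Uhrf1, Ezh2 and Suz12 was not tested.

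**Figure D3:**
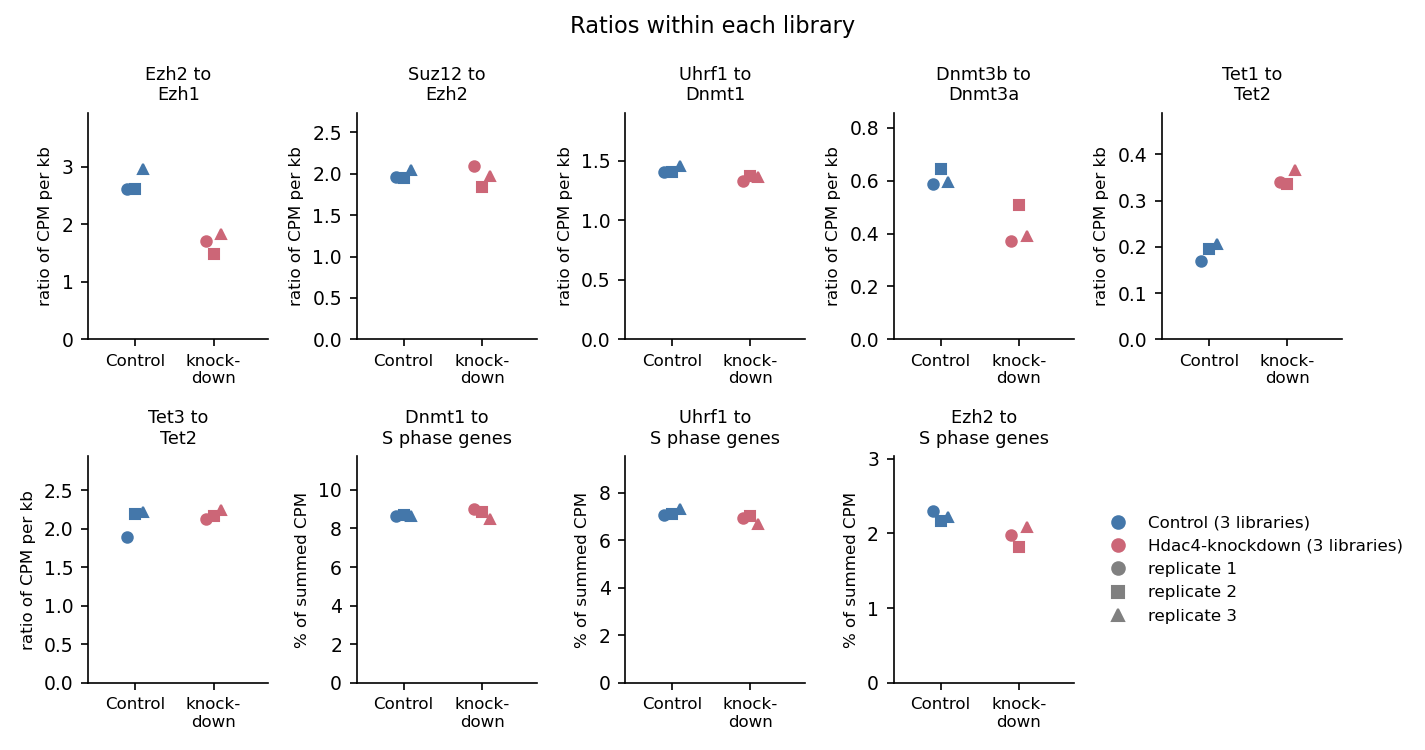
Ratios within each library for 6 pairs of genes (CPM per kb over CPM per kb) and for Dnmt1, Uhrf1 and Ezh2 as a percent of the summed CPM of 20 S phase genes, in blue for Control and red for Hdac4-knockdown, with marker shape for the replicate number and axes starting at 0. The groups are apart for Ezh2 to Ezh1 (means 2.73 and 1.68) and overlap for Suz12 to Ezh2, Tet3 to Tet2 and Dnmt1 to S phase genes.

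Related genes came from 11 lists of 193 genes, of which 146 were tested, 37 were called higher, 91 lower and 18 not called. Of the 91 lower genes, 18 were S phase and 20 were G2/M genes. The background for this total and for each list below is 38.0% of all tested genes called higher and 37.1% called lower. Among partners of the DNA methyltransferases, 6 of 9 tested genes fell, 2 rose and Cdca7 (adjusted p = 0.395) did not pass. Cdca7l, a relative of the Hells partner Cdca7, fell from 30.5 to 9.84 CPM (log2 fold change −1.63), Lig1, the DNA ligase of replication, from 151 to 89.3 CPM (−0.76), and Trim28, a corepressor that keeps methylated repeats silent, from 403 to 281 CPM (−0.52). The genes that rose were Hells, a remodeller needed for methylation, whose groups overlapped (120 ± 2.24 against 134 ± 10.5 CPM, SD, n = 3), and Dnmt3l, a catalytically inactive partner of Dnmt3a and Dnmt3b. Without Control replicate 2, only 1 gene of the list was called higher. Dnmt3l had 3, 0 and 3 counts in Control and 56, 78 and 61 in the knockdown. It passed the filter only through the knockdown group, where it was high, though still at a low level of 2.09 ± 0.309 CPM (SD, n = 3). Its fitted fold change therefore has no set size. These and the other genes of small groups were named after their values were seen. Dppa3 and Dnmt3c were too low to test.

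Of 10 genes listed as readers of methylated CpG or their relatives, 6 fell, 3 rose and Mbd2 did not pass. Their median log2 fold change was −0.28. The list includes Mbd3, Mbd5 and Mbd6, and whether each protein binds methylated CpG was not tested. Calls made up 90% of these genes, beside 75.1% of all tested genes. Mbd1 rose from 36.5 to 62.8 CPM, whereas the zinc finger readers Zbtb33 (32.9 to 18.4 CPM) and Zbtb38 (134 to 78.7 CPM) fell.

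Of 13 tested partners of demethylation, 8 fell, 2 rose and 3 did not pass, with a median log2 fold change of −0.40. Idh1, which makes the 2-oxoglutarate that Tet enzymes use, fell from 95.7 to 45.0 CPM (log2 fold change −1.09), and Cxxc5, whose CXXC domain is related to that of Tet proteins, fell from 42.0 to 20.2 CPM (−1.06). The genes that rose were Gadd45b, a stress gene linked to demethylation, at 11.4 against 67.4 CPM (2.57), and Tdg, the glycosylase that excises oxidized methylcytosine, at 39.2 against 60.0 CPM (0.61). The direction of Tet1 and Tet3 was therefore shared by Tdg and Gadd45b but not by most of this list.

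The other PRC2 genes were mixed. Of 9 in the files, 5 fell, 3 rose and Eed did not pass, with a median log2 fold change of −0.25. Calls made up 88.9% of them, beside 75.1% of all tested genes. Eed, which binds the mark that PRC2 makes and is needed by it, had 47.1 ± 1.00 CPM in Control and 44.6 ± 2.29 CPM in the knockdown (SD, n = 3). Whether its change differed from those of Ezh2 and Suz12 was not tested. Rbbp4, the histone-binding subunit, fell from 359 to 207 CPM. The accessory subunits Phf19 (25.4 to 6.17 CPM, log2 fold change −2.04) and Epop (5.08 to 1.75 CPM, −1.54) fell further. The risers were Phf1 (0.47), Aebp2 (0.15) and Rbbp7 (0.10), with log2 fold changes in parentheses. Ezhip, an inhibitor of PRC2, was not matched by symbol and is not analysed here.

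PRC1, the complex that ubiquitinates histone H2A, was split. Of 23 subunit genes, 12 rose, 9 fell and 2 (Cbx2 and Pcgf5, both with a log2 fold change below 0) did not pass, beside 38.0% and 37.1% of all tested genes higher and lower, and the median log2 fold change was 0.27. Rybp, a subunit of variant PRC1, rose from 30.8 to 57.4 CPM, whereas Bcor, the corepressor of another variant complex, fell from 83.6 to 30.3 CPM and Cbx7, a reader of H3K27 methylation, from 9.51 to 5.10 CPM. Of 10 enzymes that oppose Polycomb, 5 fell, 2 rose and 3 did not pass, with a median of −0.17. Calls made up 70% of them, beside 75.1% of all tested genes. Kdm6a and Kdm6b, the demethylases of H3K27, both fell (log2 fold changes −0.75 and −0.50), as did Asxl2 (−0.61), a partner of the H2A deubiquitinase Bap1. Kdm6a went from 49.3 to 29.3 CPM in the same libraries in which Ezh2 fell.

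Genes that these enzymes are known to silence did not move one way. Of 20 germline genes known to be silenced by promoter methylation, 10 had no count in any library, and 14 had at most 3 counts in every library. For each library a count of 0 allows up to 3 counts, by counting error only. Of the 4 that passed the filter, Tdrd9, Taf7l and Brdt rose and Sycp1 fell. The summed level of the list was 2.81 to 3.26 CPM in Control and 5.65 to 6.66 CPM in the knockdown, low in both. Taf7l had 7, 1 and 9 counts in Control and passed through the group where it was high, and all 4 were named after their values were seen.

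Of 40 developmental regulators known to be bound by Polycomb in embryonic stem cells, 14 had no count in any library and 14 passed the filter. Of these, 7 fell, 5 rose and 2 did not pass. Pax5, a regulator of B cells, fell from 15.9 to 1.20 CPM. Six2 (2.86 to 54.9 CPM) and Pax9 (0.350 to 7.46 CPM), regulators of head and limb mesenchyme, rose. Pax9 had 8, 12 and 11 counts in Control, so it passed the filter only through the knockdown group, where it was high. The median log2 fold change of the 14 was −0.92, with genes among them that passed the filter through 1 group only. The genes at either end were Pax7, with 0, 1 and 0 counts in the knockdown, and Isl1, with 0, 1 and 0 counts in Control. Both passed the filter only through the group where they were high, so their fitted fold changes have no set size. Foxa2 had 53, 82 and 73 counts in Control and 2, 12 and 4 in the knockdown. Gata6 had 56, 59 and 57 against 20, 8 and 10. Foxa2 and Gata6 passed the filter only through Control, where they were high. Pax7, Isl1, Foxa2 and Gata6 were named after their values were seen.

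**Figure D4:**
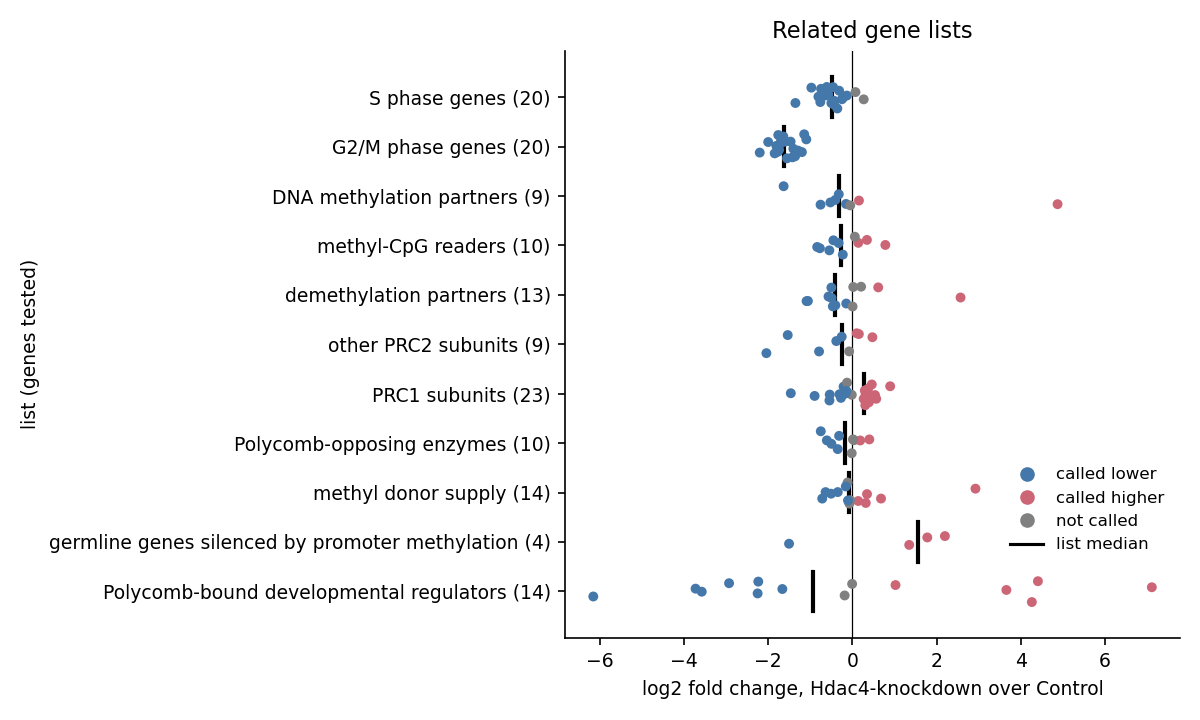
Log2 fold changes, Hdac4-knockdown over Control, of the tested genes of 11 related lists (1 point per gene, with the number tested after the list name), in blue for genes called lower, red for higher and grey for not called, and a black line at the list median. All S phase and G2/M calls lie below 0 (medians −0.48 and −1.62), PRC1 subunits lie on both sides of 0 (median 0.27), and the outermost points of the Polycomb-bound regulators are Pax7 and Isl1, which had at most 1 count per library in 1 group, so their place on the axis has no set size.

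Marker genes of other cell types moved as well, and their part in the levels of the 10 enzyme genes was not tested. All 5 skeletal muscle markers were lower, with a summed level of 174 to 180 CPM in Control and 32.8 to 35.4 CPM in the knockdown. Among them, Myod1 went from 67.9 to 8.96 CPM and Myf5 from 26.9 to 3.19 CPM. The single adipocyte marker tested was lower, from a sum of 27.3 to 29.6 CPM to one of 3.07 to 4.52 CPM, and both neural markers tested were lower, from 194 to 201 CPM to 84.0 to 92.3 CPM, with Snap25 and Sox10 at 0 in every library. Of 3 chondrocyte markers tested, 2 were higher (summed 125 to 128 against 169 to 186 CPM), with Acan at 0 in every library. Sox9, which was not called, made up most of both sums (126 against 127 CPM). Col2a1 rose from 0.827 to 51.1 CPM (log2 fold change 5.93). Comp, named after its values were seen, had 1, 0 and 2 counts in Control and 24, 20 and 17 in the knockdown. It passed the filter only through the knockdown group, where it was high. The summed endothelial (0.196 to 0.334 against 2.78 to 2.92 CPM), blood (1.60 to 2.59 against 2.69 to 3.13 CPM, with Adgre1 and Hbb-bs at 0) and epithelial markers (5.65 to 6.55 against 7.08 to 8.72 CPM) stayed low in both groups, with 1 gene of each list called higher.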

How the data were processed

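Poly-A RNA of 3 Control and 3 Hdac4-knockdown libraries was sequenced in pairs with a kit that does not mark strand. The authors deposited raw counts, the reads counted on each Ensembl gene in each library, without normalization. Per the submitters' processing notes, FastQC, STAR 2.7.3a, HTSeq 0.12.4 and mm10 were used, and the annotation release is not given in the sources used here. The labels call the knockdown only Hdac4-shRNA. The 5 summary lines of each table held 14.3 to 15.0% of reads and were left out. Symbols and GRCm38 positions came from GENCODE M21 (53706 of 53801 identifiers).

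Both groups entered 1 fit in edgeR 4.0.16 under R 4.3.3 (TMM, filterByExpr defaults, quasi-likelihood F test, group only, Benjamini-Hochberg adjustment over 14531 genes), with a call at adjusted p below 0.05 where the log2 fold change exceeded 0.05 in either direction. The biological coefficient of variation was 4.79%. The test was checked on simulated data. The 95% intervals are those of the fold change in this fit. Same-group libraries differed beyond sampling noise (chi-square per degree of freedom 3.23 to 8.36). Levels are mean ± SD of TMM-scaled CPM.

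The 10 genes and all lists were chosen with earlier results of these data known. Named genes are the 10, Hdac4, Pcna, Mki67, from each list up to 3 called genes with the largest change among those averaging 100 or more counts and without overlap between groups, and the 3 genes nearest in profile to the gene with the smallest p. Genes of small groups were named after their values were seen. Some genes of the lists are not reported here by name. Promoter windows came from RefSeq. Alternatives were DESeq2 1.42.0, its size factors, upper quartile scaling, library size alone, other filters and thresholds, limma-voom 3.58.1, the replicate number as a block, and leaving out each library.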

Additional observations from a re-analysis of the deposited data

Results flagged for a closer look

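The share of reads that fell outside annotated genes, which no comparison above uses, was 4.79% ± 0.241 (SD, n = 3) in Hdac4-knockdown libraries and 3.28% ± 0.122 in Control libraries. It stands out because it lies above the Control level in all 3 knockdown libraries (4.64 to 5.07% against 3.17 to 3.41%). Genes with at least 1 count numbered 22148 to 22640 in the knockdown and 19373 to 19797 in Control at overlapping depths. Their part in the levels of the 10 enzyme genes was not tested.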

How the results depend on the processing

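The 10 log2 fold changes were recomputed under 14 alternatives, and 128 of 140 values kept their direction and call. The exceptions were Dnmt3b and Tet2, as given above, and Ezh1, whose log2 fold change was 0.0152 with library size alone, 0.0476 with upper quartile scaling, and −0.116 to 0.00505 without 1 library each, positive without Control replicate 1. A fold change threshold of 0.5 left 2 of the 10 genes higher, 3579 and 2879 of all tested genes and 17 and 58 of the related genes higher and lower. A threshold of 1 left 1 and 0 of the 10, 2397 and 1543 of all and 11 and 35 of the related genes, since fewer genes reach it. Leaving out each library in turn gave 3 to 5 higher and 4 lower genes of the 10, and log2 differences of −0.0598 to 0.033 for Suz12 to Ezh2, −0.0216 to 0.0946 for Tet3 to Tet2 and −0.00255 to 0.0387 for Dnmt1 to S phase genes, with the sign turning without Control replicate 3 or knockdown replicate 2, without Control replicate 1 and without knockdown replicate 1. The signs of the other 6 ratios held. The median of the methyl donor list turned from −0.09 to 0.00095 under upper quartile scaling. The cause of these changes was not tested.

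With the replicate number as a block, 5 of the 10 genes were higher (Tet2 joining, adjusted p = 0.0328) and 4 lower, and 5523 and 5441 of all tested genes. Correlations of deviations between libraries of the same number were −0.0105, 0.0186 and 0.0149, so the numbers do not pair the samples. Low counts limit the precision of Dnmt3b and Tet1 among the 10 genes, and of Dnmt3l and the germline genes.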

Other observations

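Genes that supply the methyl donor of these enzymes, S-adenosylmethionine, moved in both directions. Of 14, 6 fell, 5 rose and 3 did not pass, with a median log2 fold change of −0.09. Calls made up 78.6% of them, beside 75.1% of all tested genes. Ahcy, which clears the product that inhibits methyltransferases, fell from 110 ± 4.66 to 77.2 ± 2.44 CPM (SD, n = 3), and Mat2a, which makes S-adenosylmethionine, from 86.7 ± 2.07 to 68.2 ± 1.91 CPM. Both were named after their values were seen. By size, Nnmt, which spends the donor on nicotinamide, stood first (0.789 to 5.98 CPM, log2 fold change 2.92), and Shmt1, an enzyme of the folate cycle, fell by 0.72 on the log2 scale.

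The 3 genes with profiles nearest to Uhrf1 over the 6 libraries, by Euclidean distance of mean-centred log2 levels with 1 CPM added, were Adck1 (distance 0.0211, log2 fold change −0.63), Tbcd (0.0322 and −0.59) and Arf3 (0.0358 and −0.60). With 6 libraries in 2 groups, such nearness reflects mostly a like fold change.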
